A study of Mus musculus with 6 samples.

Results

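Lyz2, S100a8, S100a9, Mpeg1, Tyrobp, Csf3r, Adgre1, Fcgr3, Fcer1g and Csf1r are genes whose products are best known from monocytes, macrophages and neutrophils, and their transcripts were measured here in a preparation of mouse CD4+ T cells. The 10 genes were listed by name and matched to gene identifiers in the count tables; all 10 were found among 55401 genes, and all 10 were among the 13364 genes with enough reads to test. RNA was sequenced from naive CD4+ T cells that had been enriched from spleen with magnetic beads and stimulated through CD3 and CD28 for 24 h. The 3 control libraries are labelled WT. The 3 Satb1 cKO libraries came from Satb1 flox/flox CD4-Cre mice, in which Cre is expressed under Cd4 regulatory sequences and acts in cells of the T lineage. The labels give no age or sex, and they do not say whether control mice carried Cre or floxed alleles or were littermates. Whether each library stands for its own mouse is not said either. The p-values below are therefore set against the spread among these 6 samples alone, and that spread may be technical.

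Monocytes, macrophages and neutrophils are phagocytes of the myeloid lineage and share the spleen with lymphocytes. They kill microbes with granule enzymes, pore-forming proteins and metal-binding proteins, depend on colony-stimulating factors for survival and maturation, and sense antibody-coated particles through Fc receptors. Many of their receptors have no signalling tail and work through small partner proteins, TYROBP (DAP12) and FCER1G, whose ITAM sequences recruit the kinase SYK. In a bulk library of enriched T cells, more cells of a type and more RNA per cell cannot be told apart.

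Between 14895389 and 20266626 reads were counted on genes in each library. Satb1 itself was lower in the Satb1 cKO libraries, at 712, 851 and 727 CPM (counts scaled to library size) in control and 426, 546 and 462 CPM in Satb1 cKO (log2 fold change -0.68, SE 0.087, adjusted p = 9.70e-05). Its counts cover the whole gene, including exons outside the deleted part, and do not measure the extent of deletion. The T cell identity of the preparation was visible in both groups: Cd3e, a chain of the T cell receptor complex, stood at 155 ± 6.03 CPM in control and 143 ± 6.98 CPM in Satb1 cKO (SD, n = 3 each). Cd4, which marks these cells, fell from 701 ± 19.96 to 209 ± 4.06 CPM (a log2 fold change of -1.75, SE 0.038, adjusted p = 2.28e-10).

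All 10 myeloid genes were called higher in the Satb1 cKO libraries by the quasi-likelihood test of edgeR, with adjusted p (Benjamini-Hochberg) below 0.05. Of all tested genes 42.3% were called, 21.6% higher and 20.7% lower. None was lower, 0 of 10 also at an unadjusted p under 0.05 and 0 of 10 in DESeq2. In all 10 the lowest Satb1 cKO library lay above the highest control library, a pattern held by 27% of tested genes, although for Fcer1g the groups met at 1.54 CPM. The median log2 fold change of the 10 genes was 2.69, beside 0.0034 over all tested genes. All 10 were called higher with a log2 fold change of at least 1, as were 5.24% of tested genes. These counts describe the list and are not a test of it. Several genes had passed the filter on low counts through the Satb1 cKO libraries alone or nearly so. Csf3r and Adgre1 had 0 of 3 control libraries at the filter's level of 0.584 CPM, and S100a8, S100a9 and Tyrobp had 1. With 0, every Satb1 cKO library had to lie above every control library. With 1, at least 2 Satb1 cKO libraries had to reach the level, which favours a rise without fixing it. Fcgr3, Fcer1g and Csf1r had 2 control libraries at the level and also needed Satb1 cKO libraries to pass. Only Lyz2 and Mpeg1, with 3, passed on the control libraries alone. The other lists below went through the same filter.

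**Figure D1:**
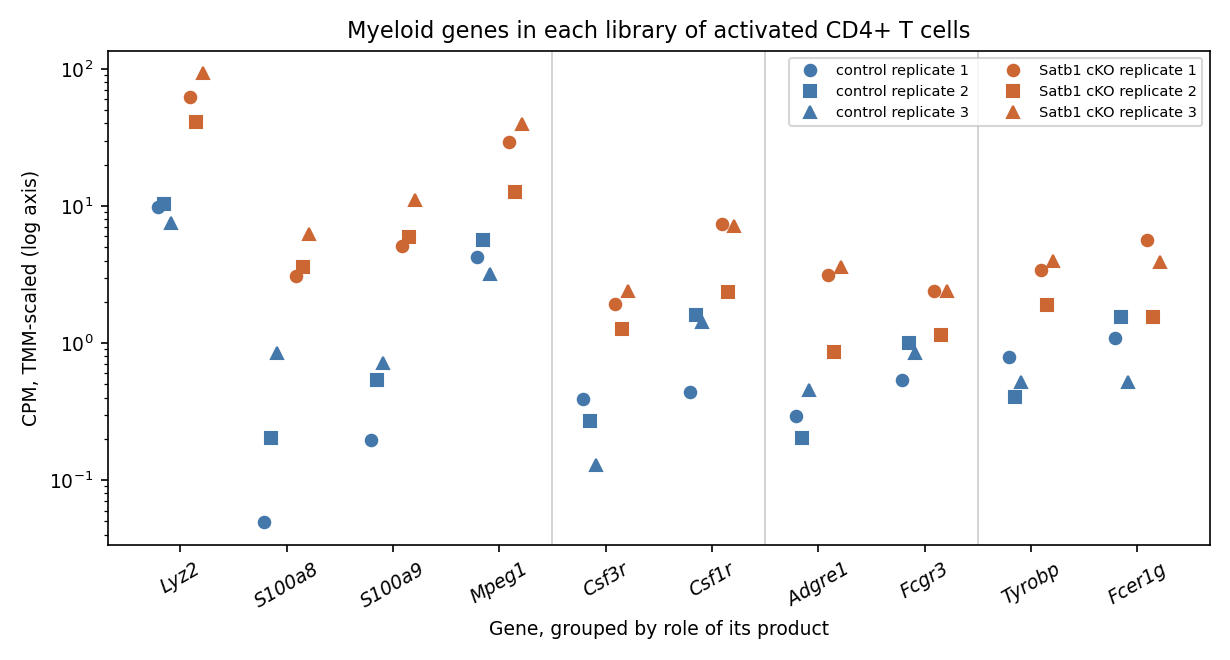
Level of each of the 10 genes in each library, in TMM-scaled CPM on a log axis, with control libraries in blue and Satb1 cKO libraries in orange and the marker shape giving the replicate number. Orange points lie above blue points for every gene, with Fcer1g touching at 1.54 CPM; Lyz2 reached 93.0 CPM in Satb1 cKO replicate 3.

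Stretches of DNA from the 250 bases before a RefSeq transcript start of S100a8, S100a9 and Fcgr3 are shown. S100a9 and S100a8 had the largest differences of the 10 genes and Fcgr3 the smallest. Each is written 5′ to 3′ on the strand of its gene (RefSeq windows, GRCm38.p6), limited to bases that no annotated exon overlaps. Capitals mark the letters GAGGAA or, on the other strand, TTCCTC, a purine-rich core of the kind bound by PU.1, the myeloid transcription factor encoded by Spi1. S100a8 is chr3:90668821-90668977 on the plus strand, S100a9 is chr3:90695722-90695971 and Fcgr3 is chr1:171059404-171059626, both on the minus strand. The RefSeq starts used for S100a8 and Fcgr3 lie inside the GENCODE spans of their genes, downstream of the annotated 5′ ends. The stretch of Fcgr3 is therefore that of an internal start. That of S100a8 covers 250 to 94 bases before its RefSeq start and ends where the gene's GENCODE span begins.
S100a8: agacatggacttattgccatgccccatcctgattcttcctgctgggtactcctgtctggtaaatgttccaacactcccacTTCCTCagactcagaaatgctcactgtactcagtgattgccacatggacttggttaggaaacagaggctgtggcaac
S100a9: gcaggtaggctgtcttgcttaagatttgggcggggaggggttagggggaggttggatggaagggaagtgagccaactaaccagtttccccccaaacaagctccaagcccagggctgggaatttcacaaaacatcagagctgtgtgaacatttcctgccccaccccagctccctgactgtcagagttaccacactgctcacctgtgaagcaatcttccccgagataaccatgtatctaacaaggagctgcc
Fcgr3: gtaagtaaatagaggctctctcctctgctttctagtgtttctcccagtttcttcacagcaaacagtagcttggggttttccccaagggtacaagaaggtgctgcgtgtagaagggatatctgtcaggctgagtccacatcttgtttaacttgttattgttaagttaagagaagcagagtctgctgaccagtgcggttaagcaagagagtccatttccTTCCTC

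The letters GAGGAA, searched on both strands, were in the 250 bases before the start of 3 of the 7 genes with a RefSeq window (Csf3r, Fcgr3 and S100a8) and in 23.3% of all 32851 windows of that length. In S100a8 a match lay 165 to 170 bases before the start, and another, 31 to 36 bases before it, fell in a stretch that overlaps an annotated exon and is not printed. TATAAA on either strand was in 1 of 7 (S100a8) and 12.4% of all windows. TTNNGNAA, a pattern of the C/EBP kind, was in 4 of 7 (Fcgr3, Lyz2, S100a8 and S100a9) and 36.9%. The motifs were chosen after the sequences were seen. A match is a description of the letters, not a binding site.

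Secreted and granule proteins gave most of the reads. Lyz2 (ENSMUSG00000069516.8, chromosome 10, 117277331 to 117282321, minus strand, GRCm38) encodes lysozyme M, which cleaves bacterial cell walls and is abundant in macrophages and neutrophils. Its levels were 9.89, 10.3 and 7.52 CPM in control, and 62.3, 41.1 and 93.0 CPM in Satb1 cKO. The control libraries lay close together, and the lowest Satb1 cKO library was 4.0 times the highest control. Lyz2 rose 7.05-fold (95% interval 4.72 to 10.5, log2 fold change 2.82, SE 0.264, adjusted p = 9.49e-06). Its near-identical relative Lyz1, to which reads of Lyz2 can also align, had 1 read in control and 10 in Satb1 cKO in all.

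S100a8 (ENSMUSG00000056054.9, chromosome 3, 90668978 to 90670035) and S100a9 (ENSMUSG00000056071.12, chromosome 3, 90692632 to 90695721) encode both chains of calprotectin, a calcium- and zinc-binding protein that fills the cytosol of neutrophils. S100a8 was counted in 1, 3 and 13 reads in the control libraries (0.0492, 0.201 and 0.843 CPM) and in 59, 63 and 104 reads in the Satb1 cKO libraries (3.10, 3.60 and 6.28 CPM). Control replicate 3 was the highest control library for both genes and Satb1 cKO replicate 3 the highest of all. S100a8 rose 12.4-fold (95% interval 5.43 to 28.4, log2 fold change 3.63, SE 0.543, adjusted p = 0.000287). The size of this difference leaned on a few control reads: the log2 fold change was 5.15 without control replicate 3 and 3.0 without control replicate 1.

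S100a9 was counted in 4, 8 and 11 control reads (0.197, 0.537 and 0.713 CPM) and in 98, 104 and 182 Satb1 cKO reads (5.15, 5.95 and 10.98 CPM). It rose 15.8-fold, more than any of the other genes (95% interval 8.33 to 29.8, log2 fold change 3.98, SE 0.418, adjusted p = 2.27e-05). Its interval overlapped that of S100a8 and those of several other genes of the 10. The ratio of S100a9 to S100a8 reads was nearly the same in the 3 Satb1 cKO libraries, at 1.66, 1.65 and 1.75. In the control libraries, with few reads, it was 4.0, 2.67 and 0.846.

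Mpeg1 (ENSMUSG00000046805.10, chromosome 19, 12460779 to 12465283) encodes perforin-2, a pore-forming protein of macrophages. It stood at 4.23, 5.64 and 3.18 CPM in control and 29.1, 12.6 and 39.5 CPM in Satb1 cKO. Satb1 cKO replicate 2 was well below the other two yet above every control library. Mpeg1 rose 6.23-fold (95% interval 3.57 to 10.9, log2 fold change 2.64, SE 0.366, adjusted p = 0.000171).

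The growth factor receptors had far fewer reads than Lyz2. Csf3r (ENSMUSG00000028859.14, chromosome 4, 126024550 to 126044440) encodes the receptor for G-CSF, the main growth factor of neutrophils. It was counted in 8, 4 and 2 control reads (0.394, 0.269 and 0.130 CPM) and 37, 22 and 40 Satb1 cKO reads (1.94, 1.26 and 2.41 CPM). The groups were well apart, and Csf3r rose 6.66-fold (95% interval 3.51 to 12.6, log2 fold change 2.73, SE 0.421, adjusted p = 0.000353). Csf1r (ENSMUSG00000024621.16, chromosome 18, 61100598 to 61132149) encodes the receptor for M-CSF and IL-34, on which monocytes and macrophages depend. It stood at 0.443, 1.61 and 1.43 CPM in control and 7.41, 2.35 and 7.12 CPM in Satb1 cKO. Satb1 cKO replicate 2 lay nearer to the upper control libraries than to its own group. Csf1r rose 5.06-fold (95% interval 2.45 to 10.4, log2 fold change 2.34, SE 0.476, adjusted p = 0.00224). Its 3′ end overlaps Hmgxb3 on the opposite strand (61131277 to 61177050), and whether counting used strand is not given in the sources used here; Hmgxb3 had 4914 control and 5145 Satb1 cKO reads.

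Of the ligands of these receptors, Csf1, encoding M-CSF, rose from 2.30 ± 0.122 to 4.84 ± 0.725 CPM (a log2 fold change of 1.07, SE 0.185, adjusted p = 0.000761). Il34 was counted in 1 read over the 6 libraries. Csf3, encoding G-CSF, had 4 reads in control and 1 in Satb1 cKO. Neither of these was tested. In the whole list of 14 colony-stimulating factor ligands and receptors, 9 were tested, 5 were higher and 1 was lower, with a median log2 fold change of 0.85. Kit, the stem cell factor receptor, rose from 4.37 ± 0.407 to 11.8 ± 0.629 CPM. Csf2rb, the shared beta chain of the GM-CSF, IL-3 and IL-5 receptors, rose from 3.11 ± 1.03 to 10.1 ± 3.37 CPM, and the GM-CSF receptor alpha chain Csf2ra from 5.73 ± 0.686 to 10.3 ± 1.52 CPM. Il3, a cytokine of activated T cells and the one tested gene of the list that was lower, went from 2.60 ± 0.926 to 0.823 ± 0.240 CPM.

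Adgre1 (ENSMUSG00000004730.15, chromosome 17, 57358691 to 57483527) encodes F4/80, the surface protein used to recognise mouse macrophages. It was counted in 6, 3 and 7 control reads (0.295, 0.201 and 0.454 CPM) and 60, 15 and 59 Satb1 cKO reads (3.15, 0.858 and 3.56 CPM). Satb1 cKO replicates 1 and 3 stood close together and replicate 2 far below them. Adgre1 rose 7.82-fold (95% interval 3.33 to 18.4, log2 fold change 2.97, SE 0.560, adjusted p = 0.00138). Fcgr3 (ENSMUSG00000059498.13, chromosome 1, 171051174 to 171064935) encodes an activating receptor for IgG found on macrophages, neutrophils and NK cells. It stood at 0.542, 1.01 and 0.843 CPM in control and 2.42, 1.14 and 2.41 CPM in Satb1 cKO, so that Satb1 cKO replicate 2 was only just above the highest control. Fcgr3 had the smallest rise of the 10 genes, 2.55-fold (95% interval 1.46 to 4.45, log2 fold change 1.35, SE 0.366, adjusted p = 0.0117). Without Satb1 cKO replicate 3 the call was lost (log2 fold change 1.19, SE 0.419, adjusted p = 0.0507). Fcgr2b, the inhibitory IgG receptor, which B cells carry as well and whose sequence resembles Fcgr3 in part, rose from 0.659 ± 0.474 to 2.60 ± 1.19 CPM (a log2 fold change of 1.98, SE 0.485, adjusted p = 0.00677).

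The adaptor genes followed. Tyrobp (ENSMUSG00000030579.10, chromosome 7, 30413760 to 30417585) stood at 0.788, 0.403 and 0.519 CPM in control and 3.41, 1.89 and 3.98 CPM in Satb1 cKO, with a clear gap between the groups. It rose 5.22-fold (95% interval 3.01 to 9.05, log2 fold change 2.38, SE 0.362, adjusted p = 0.000322). Its neighbour Hcst (30417712 to 30419854, opposite strand), which encodes DAP10, an adaptor without an ITAM that T cells also use, did not pass the test, at 9.49 ± 0.838 and 7.99 ± 0.615 CPM (log2 fold change -0.24, SE 0.121, adjusted p = 0.129). Fcer1g (ENSMUSG00000058715.11, chromosome 1, 171229572 to 171234365), the gamma chain shared by Fc receptors, was counted in 22, 23 and 8 control reads (1.08, 1.54 and 0.519 CPM) and 108, 27 and 65 Satb1 cKO reads (5.67, 1.54 and 3.92 CPM). The groups met, since Satb1 cKO replicate 2 was level with control replicate 2. Fcer1g rose 3.55-fold (95% interval 1.75 to 7.18, log2 fold change 1.83, SE 0.462, adjusted p = 0.00801).

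**Figure D2:**
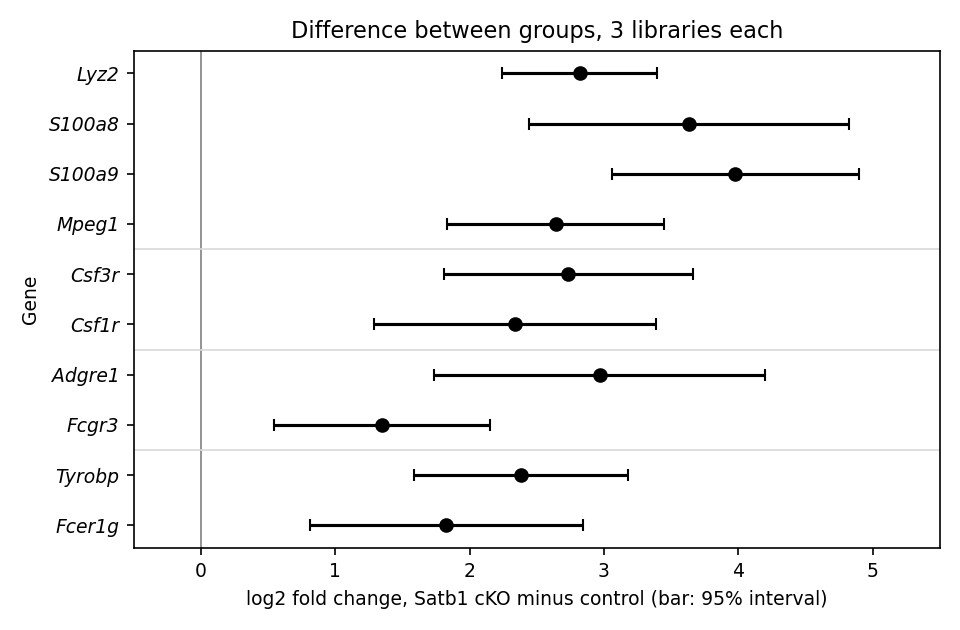
Difference between the groups for each of the 10 genes, as log2 fold change (Satb1 cKO minus control, points) with its 95% interval (bars), from 3 libraries per group. All intervals lie to the right of 0, from Fcgr3 at 1.35 to S100a9 at 3.98, and most of them overlap each other.

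Receptors that signal through these adaptors were mostly too scarce to test. Of 22 such genes, 7 were tested, and all 7 of these were higher (median log2 fold change 2.46). The count called higher was 6 in DESeq2, 10 without the filter on low counts, and 5 to 7 without each library in turn. For Clec4e and Clec4n the libraries of the groups overlapped. That all 7 were higher follows in part from the filter on low counts. Clec5a stood below its level of 0.584 CPM in every control library, and Fcer1a and Ms4a2 did so in control replicates 1 and 2. Clec5a therefore had to be higher in every Satb1 cKO library. Fcer1a and Ms4a2 needed at least 2 Satb1 cKO libraries at the level, which favours a rise without fixing it. Clec5a, a TYROBP partner of monocytes and neutrophils, rose from 0.137 ± 0.00938 to 1.71 ± 0.351 CPM (a log2 fold change of 3.56, SE 0.402, adjusted p = 3.81e-05). Clec4d, a lectin partner of FCER1G, rose from 0.579 ± 0.211 to 3.27 ± 2.17 CPM, with 0.858 CPM in Satb1 cKO replicate 2 against 3.89 and 5.07 CPM in the other two. Ms4a2 and Fcer1a, the beta and alpha chains of the high-affinity IgE receptor of mast cells and basophils, each had a log2 fold change of 2.67, which for Fcer1a became 4.73 without control replicate 3. A further 7 genes of the list had 0 control reads. Trem2, one of these, a macrophage receptor chosen here after its values were seen, was counted in 1, 2 and 10 Satb1 cKO reads. Other untested genes of the list did not rise, such as Ncr1, with 20 control and 17 Satb1 cKO reads, and Fcgr1, with 4 and 4.

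Among 21 genes of the signalling chain below the adaptors, many of which T cells use for their own receptor, 20 were tested, 8 were higher and 4 lower, with a median log2 fold change of 0.02. Syk, the kinase of myeloid and B cells, went up from 2.80 ± 0.317 CPM to 8.25 ± 2.87 (log2 fold change 1.57, SE 0.258, adjusted p = 0.000563). Zap70, its T cell relative, did not pass the test, at 467 ± 41.7 and 446 ± 18.4 CPM (log2 fold change -0.07, SE 0.059, adjusted p = 0.377). The phospholipase genes moved in opposite directions: Plcg2, the form of B and myeloid cells, rose from 4.44 ± 0.543 to 13.8 ± 0.413 CPM, and Plcg1, the form of T cells, fell from 169 ± 5.60 to 109 ± 3.78 CPM. Vav3, a guanine nucleotide exchange factor, fell from 41.7 ± 1.58 to 12.4 ± 0.201 CPM. Lck, the T cell kinase that phosphorylates ITAMs, fell from 442 ± 10.4 to 375 ± 4.55 CPM. Not every gene known from B and myeloid cells rose with Syk and Plcg2. Btk stood at 2.23 ± 0.787 and 1.51 ± 0.808 CPM (log2 fold change -0.57, SE 0.374, adjusted p = 0.246). Card9 stood at 1.49 ± 0.296 and 0.929 ± 0.272 CPM (log2 fold change -0.65, SE 0.309, adjusted p = 0.115). Neither passed the test.

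Levels of different genes were compared as CPM per kb of annotated exon. In Satb1 cKO, Lyz2 stood first at 49.7 ± 19.8 CPM per kb, then S100a9 at 14.1 ± 6.06 and Mpeg1 at 6.25 ± 3.12 (SD, n = 3). The libraries of Lyz2 and S100a9 did not overlap on this scale, nor did those of S100a9 and Mpeg1. S100a8 (6.23 ± 2.46), Tyrobp (4.64 ± 1.62) and Fcer1g (4.25 ± 2.37 CPM per kb) each overlapped the gene before it. After a gap, Fcgr3 (1.15 ± 0.423), Csf1r (0.974 ± 0.492), Adgre1 (0.779 ± 0.45) and Csf3r (0.519 ± 0.161 CPM per kb) overlapped their neighbours. In control, Lyz2 stood first as well, at 7.01 ± 1.13 CPM per kb, and Fcer1g was next at 1.20 CPM per kb, where its libraries overlapped those of Mpeg1. Cd3e stood at 35.0 ± 1.71 CPM per kb in Satb1 cKO, inside the range of the Lyz2 libraries of that group (31.2 to 70.7 CPM per kb). Other genes that T cells use for their receptor spread widely on this scale. In Satb1 cKO, Zap70 at 149 ± 6.17 and Lck at 128 ± 1.55 CPM per kb lay above that range, and Plcg1 at 13.9 ± 0.481 below it. Cd3e therefore does not stand for T cell genes in general.

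**Figure D3:**
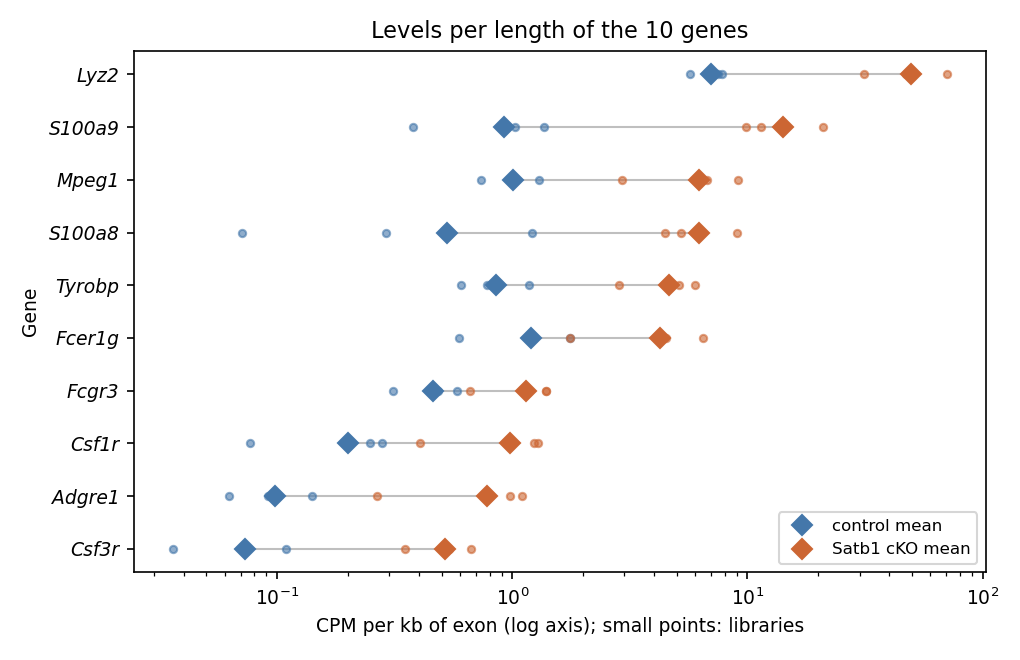
Levels per length of the 10 genes, in CPM per kb of annotated exon on a log axis, with small points for libraries and diamonds for group means. Lyz2 leads in both groups, at 7.01 in control and 49.7 in Satb1 cKO, and Csf3r is last in both.

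Summed over the 10 genes, the level was 17.9, 21.7 and 16.1 CPM in control, and 124, 72.3 and 173 CPM in Satb1 cKO. Lyz2 made up 46.6% to 56.8% of the sum in every library. The Satb1 cKO libraries differed among themselves, and Satb1 cKO replicate 2 was the lowest of its group for 8 of the 10 genes, where 31.1% of all tested genes were lowest in that library. The exceptions were S100a8 and S100a9, lowest in Satb1 cKO replicate 1. The level in Satb1 cKO replicate 2, divided by the mean of replicates 1 and 3, was 0.256 for Adgre1, 0.322 for Fcer1g, 0.323 for Csf1r and 0.369 for Mpeg1. It was 0.529 for Lyz2, 0.738 for S100a9 and 0.769 for S100a8. The median over the 10 genes was 0.492, beside 0.9999 over all tested genes. At 5 of the 10 genes this ratio was at or under 0.5, which 1.73% of tested genes were.

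The same library did not stand low for every marker of myeloid cells. Mpo, Elane, Prtn3 and Ctsg encode azurophil granule proteins, which are transcribed in neutrophil precursors, and were grouped here after their values were seen. Together they held 20.3, 23.5 and 20.3 CPM in the 3 Satb1 cKO libraries, level across the group, against 0.591, 2.55 and 3.95 CPM in control. Ly6g, Cxcr2, Retnlg, Mmp8, Mmp9 and Fpr1, of later neutrophils and grouped in the same way, had 13 reads in control and 134 in Satb1 cKO, and their summed level in Satb1 cKO replicate 2 was 0.375 of the mean of the other two. Ly6g, the surface protein used to recognise mouse neutrophils, had 0 reads in control and 2 in Satb1 cKO. Cybb, the membrane subunit of the phagocyte oxidase, was low in that library as Adgre1, Csf1r and Mpeg1 were, with 37.6, 12.9 and 39.5 CPM in the 3 Satb1 cKO libraries. Of the 25 tested genes of the monocyte and macrophage list, 17 were lowest of the group in that library, where 31.1% of all tested genes were. Some macrophage genes were not: the same ratio was 1.46 for Vcam1 and 1.27 for Apoe.

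**Figure D4:**
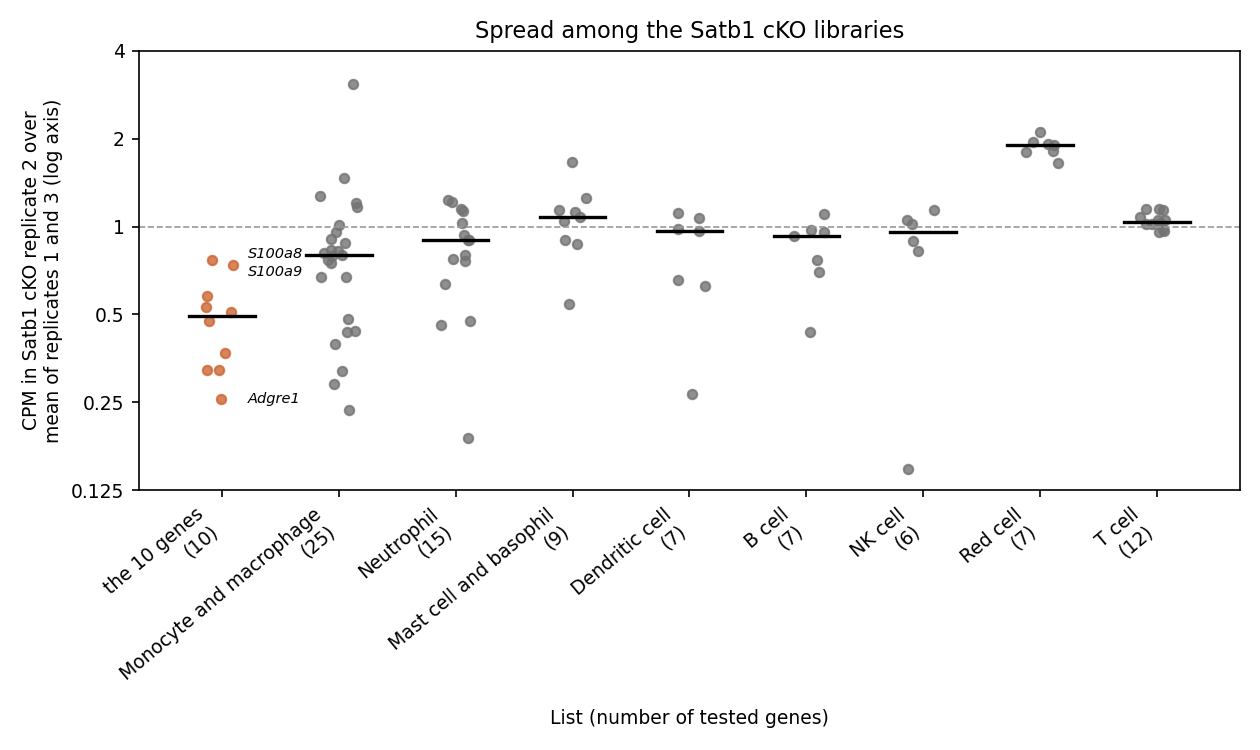
For each tested gene of a list, its CPM in Satb1 cKO replicate 2 divided by the mean of Satb1 cKO replicates 1 and 3, on a log axis, with a bar at the list's median and the number of tested genes under each name. The 10 genes have a median of 0.492, the monocyte and macrophage list 0.798, the neutrophil list 0.896, the T cell list 1.04 and the red cell list 1.90.

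Other markers of monocytes and macrophages were mostly higher in Satb1 cKO. Of 37 genes, 25 were tested, of which 20 were higher and 1 lower (median log2 fold change 1.33). Their summed level was 556 to 596 CPM in control and 658 to 871 CPM in Satb1 cKO, much of it from genes that T cells express too, such as Psap and Ctsb, which encode lysosomal proteins. Ly6c2, which encodes a surface protein of inflammatory monocytes and of some T cells, rose from 1.81 ± 0.763 to 12.5 ± 1.94 CPM (a log2 fold change of 2.84, SE 0.249, adjusted p = 5.77e-06). Chil3, encoding the chitinase-like protein Ym1, rose from 0.408 ± 0.446 to 5.57 ± 1.40 CPM, a log2 fold change of 3.84 that became 5.21 without control replicate 3 and 3.20 without control replicate 1. Hmox1, encoding the haem-degrading enzyme heme oxygenase 1, rose from 8.52 ± 1.06 to 25.01 ± 6.02 CPM, and Vcam1, an adhesion molecule, from 0.575 ± 0.125 to 3.34 ± 0.880 CPM. Ms4a6c fell from 26.8 ± 2.62 to 16.9 ± 1.56 CPM (a log2 fold change of -0.65, SE 0.096, adjusted p = 0.000265).

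Several markers used to define tissue macrophages had too few reads to test and are named here after their values were seen. C1qa, C1qb and C1qc, the chains of complement C1q, were counted in 1, 1 and 2 control reads and in 26, 28 and 26 Satb1 cKO reads. By library, the Satb1 cKO reads were 6, 12 and 8 for C1qa, 1, 15 and 12 for C1qb, and 4, 15 and 7 for C1qc. Marco, a scavenger receptor, had 3 control reads and 7, 22 and 10 reads in the Satb1 cKO libraries. These genes were highest in Satb1 cKO replicate 2, the library in which Adgre1, Csf1r and Mpeg1 were lowest of the group. Siglec1 had 5 and 3, and Fcgr1, the high-affinity IgG receptor, had 4 and 4.

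Of 28 neutrophil genes, 15 were tested, of which 11 were higher in edgeR (median log2 fold change 3.10). DESeq2 called 15 genes of the list higher, and edgeR without the filter on low counts 17. None was lower, with 0 in edgeR, 0 in DESeq2 and 0 at an unadjusted p under 0.05 in edgeR. The summed level was 8.86 to 15.04 CPM in control and 62.1 to 77.8 CPM in Satb1 cKO, and Stfa2 and Stfa3 were at 0 in every library. Ngp, encoding neutrophilic granule protein, rose from 0.359 ± 0.366 to 9.12 ± 3.04 CPM (a log2 fold change of 4.72, SE 0.443, adjusted p = 9.63e-06). Mpo, encoding myeloperoxidase, rose from 1.04 ± 0.894 to 9.52 ± 1.22 CPM, and Prtn3, encoding proteinase 3, from 0.153 ± 0.163 to 3.48 ± 0.551 CPM. Il1r2, a decoy receptor for IL-1 that regulatory T cells carry as well, rose from 1.56 ± 0.555 to 13.3 ± 1.55 CPM (a log2 fold change of 3.10, SE 0.201, adjusted p = 5.43e-07). Control replicate 3 held the highest control level of 9 of the 15 tested genes, where 30.8% of all tested genes were highest there. Without it the log2 fold change was 5.92 for Ngp, 5.76 for Prtn3 and 4.18 for Mpo, and without control replicate 1 it was 4.17, 3.87 and 2.7.

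Transcription factors of the myeloid lineage were higher for 8 and lower for 1 of the 11 tested genes of a list of 13. Spi1, encoding PU.1, rose from 0.916 ± 0.244 to 2.33 ± 0.533 CPM (a log2 fold change of 1.37, SE 0.302, adjusted p = 0.00366), and Cebpa, encoding C/EBP alpha of granulocyte and monocyte precursors, from 0.372 ± 0.0945 to 2.95 ± 0.562 CPM. Irf8, which drives monocyte and dendritic cell development and is also induced in activated T cells, rose from 110 ± 39.8 to 813 ± 78.4 CPM. Irf5 rose from 5.34 ± 0.575 to 11.2 ± 0.395 CPM and Runx1 fell from 64.7 ± 4.85 to 53.3 ± 3.46 CPM. Of the 6 genes of the phagocyte oxidase, all tested, 4 were higher and 1 lower. Cybb rose from 9.27 ± 2.07 to 29.99 ± 14.9 CPM (a log2 fold change of 1.70, SE 0.343, adjusted p = 0.00209) and Ncf1, encoding the organiser subunit p47phox, from 61.5 ± 9.22 to 86.9 ± 1.77 CPM. The small GTPase gene Rac2, which T cells express strongly, fell from 556 ± 27.1 to 473 ± 12.1 CPM.

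Relatives and receptors of S100A8 and S100A9 did not move together. Of 14 genes, 7 were tested, 3 were higher and 1 lower. S100a6 rose from 0.612 ± 0.275 to 2.67 ± 0.682 CPM and S100a11 from 50.2 ± 2.39 to 61.5 ± 4.24 CPM, whereas S100a10 did not pass the test at 128 ± 5.64 and 133 ± 11.7 CPM (log2 fold change 0.06, SE 0.063, adjusted p = 0.490). S100a3, S100a4 and S100a5 were listed at 0 in every library. Reads that could not be assigned to a single gene, 5.40% to 5.57% of reads, were left out of the counts. Whether this affected these genes was not tested. Of the receptors proposed for calprotectin, Tlr4 rose from 0.149 ± 0.111 to 0.756 ± 0.0641 CPM and Ager, encoding RAGE, fell from 3.20 ± 0.466 to 1.56 ± 0.535 CPM. The log2 fold change of Tlr4, 2.38, rested on 7 control reads and was 3.05 without control replicate 2.

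Many markers of other cells that bead enrichment can leave in a preparation also differed between the groups. Their part in the differences of the 10 genes was not tested. For comparison, 21.6% of all tested genes were called higher and 20.7% lower. Basophil and mast cell genes were higher for 8 of 9 tested genes of 10 and lower for 0 in edgeR, 0 in DESeq2 and 0 at an unadjusted p under 0.05 in edgeR, with summed levels of 12.3 to 20.5 CPM in control and 54.9 to 56.5 CPM in Satb1 cKO; the mast cell protease gene Mcpt4 was at 0 in every library. Mcpt8, a basophil protease, rose from 2.30 ± 0.956 to 11.8 ± 0.729 CPM. Red cell genes were higher for 7 of 7 tested genes of 11, with summed levels of 25.6 to 32.2 CPM in control and 311 to 1865 CPM in Satb1 cKO. The lowest red cell level in that group was in Satb1 cKO replicate 1 and the highest in replicate 2, the library with the lowest level of most of the 10 myeloid genes.

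NK cell genes were higher for 4 of 6 tested genes of 15, with summed levels of 11.2 to 17.1 CPM in control and 29.5 to 38.5 CPM in Satb1 cKO, among them Prf1 and Eomes, which activated T cells also express; Ncr1, a defining NK receptor gene, had 20 control and 17 Satb1 cKO reads. B cell genes were higher for 2 of 7 tested genes of 12, beside 21.6% of all tested genes. Their summed levels of 228 to 291 CPM in control and 244 to 305 CPM in Satb1 cKO overlapped, and most came from the immunoglobulin gene Ighm. The B cell count was 4 without control replicate 3 and 1 without control replicate 2. Without the filter on low counts, 7 NK cell, 4 B cell and 4 platelet genes were higher. Dendritic cell genes were higher for 4 of 7 tested genes of 15. Their summed levels of 172 to 213 CPM in control and 185 to 262 CPM in Satb1 cKO overlapped, and Clec4a4 was at 0 in every library. Of the dendritic cell genes 0 were lower in edgeR and 0 in DESeq2, and 1 was at an unadjusted p under 0.05 in edgeR. The adjusted count of lower genes was 1 without control replicate 1, 2 without Satb1 cKO replicate 1 and 2 without the filter. Platelet genes were higher for 2 and lower for 1 of 4 tested genes of 7, with summed levels of 32.9 to 54.7 and 24.5 to 27.4 CPM, and only 1 was higher without control replicate 3, Satb1 cKO replicate 2 or Satb1 cKO replicate 3, or with at least 10 reads required in 3 libraries. The count of lower platelet genes was 2 without Satb1 cKO replicate 3. T cell genes were lower for 9 and higher for 1 of 12 tested genes of 12, with summed levels of 3692 to 3783 CPM in control and 2692 to 2806 CPM in Satb1 cKO.

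**Figure D5:**
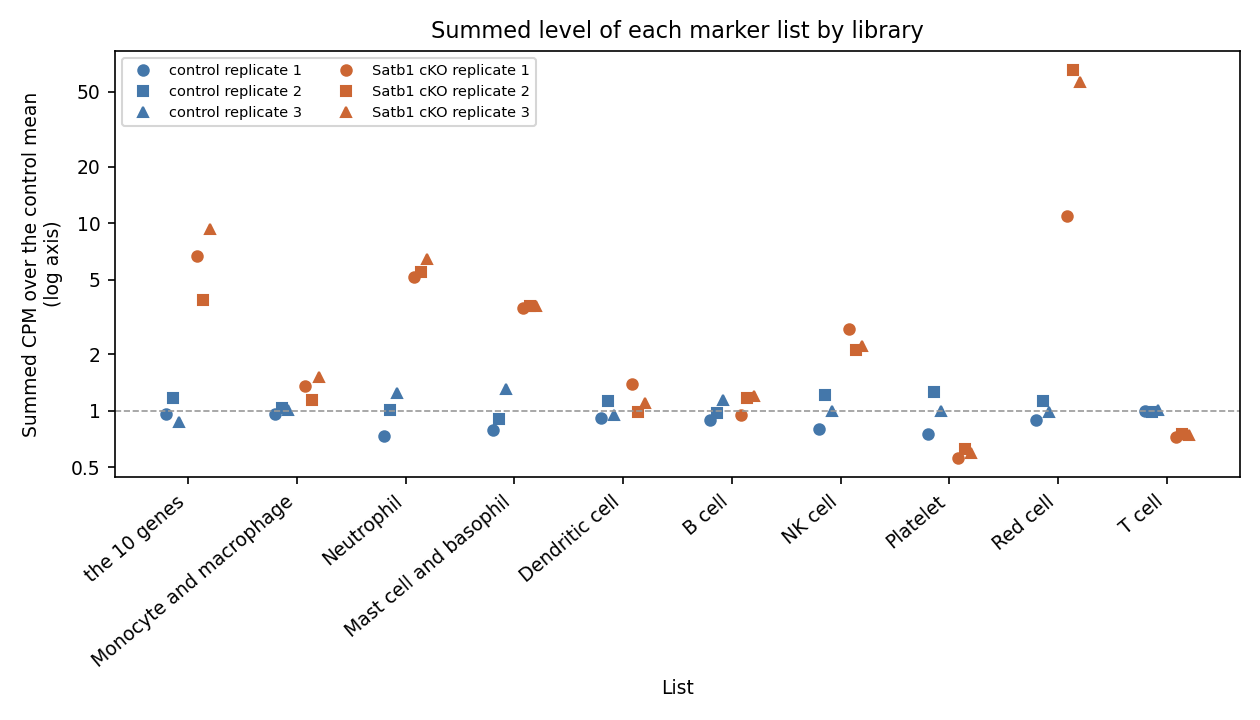
Summed CPM of each marker list in each library, divided by the mean of the 3 control libraries, on a log axis. The 10 genes and the monocyte and macrophage, neutrophil, basophil, NK cell and red cell lists lie above the control libraries in all 3 Satb1 cKO libraries. The T cell and platelet lists lie below. The red cell list spans 311 to 1865 CPM in Satb1 cKO.

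Among tested protein-coding genes outside the 10 with a mean of at least 1 CPM, the level over the 6 libraries was compared with the mean log2 level of the 10 genes. Of 10706 genes so ranked, 390 had a Pearson r over 0.95, as a description of these libraries, in which the points share a difference between the groups. Among the 10 genes of highest r were Ftl1, encoding ferritin light chain, at r = 0.997, and Cactin, Gatad2a, Hmox1, Timm13, Dhx37 and Trim28, with r from 0.997 to 0.992. Hmox1 and Ftl1, both of iron handling, had 25.4, 18.8 and 30.8 CPM and 29.5, 24.3 and 31.4 CPM in the 3 Satb1 cKO libraries, lowest in replicate 2 and highest in replicate 3, as the summed level of the 10 genes was. Among pairs of the 10 genes, deviations from the group means correlated at 0.985 for Fcgr3 with Csf1r and 0.960 for Lyz2 with Mpeg1 and at -0.33 for S100a8 with Fcer1g, over 6 libraries that share their depth.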

How the data were processed

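RNA-seq counts of 3 control and 3 Satb1 cKO libraries were used. The authors deposited 1 table of raw read counts per library, whole numbers per gene without normalization. Per the submitters' processing notes, the tools were STAR 2.7.3a and HTSeq 0.12.4 and the build mm10 (GRCm38). Which annotation was used, and whether counting used strand, is not given in the sources used here. Each table held 55401 genes, of which 55141 matched GENCODE M21, and 5 summary lines, which were left out of library sizes; reads on no feature were 9.18% to 9.50% of reads in control and 7.32% to 7.61% in Satb1 cKO.

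The analysis used edgeR 4.0.16 (R 4.3.3): filterByExpr (13364 genes left), TMM scaling, and a quasi-likelihood test with group as the only term and Benjamini-Hochberg adjustment over all tested genes, called at an adjusted p under 0.05. CPM use TMM-scaled library sizes, with means ± SD of 3 libraries; standard errors of log2 fold changes come from the coefficient and its F statistic. The biological coefficient of variation was 6.27%. No libraries were identical, and counts within groups differed by more than sampling noise (chi-square from 2.09 to 6.90 per degree of freedom). The method was tested on simulated data for this comparison (13128 genes): recovery was 58% at a 1.5-fold change, 78.7% at 2-fold and 100% at 4-fold and 8-fold, and 12 of its 178 calls were false.

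The 10 genes, 15 other gene lists and the tests were chosen with earlier results of these data known. Named genes were the 10, up to 4 called genes of smallest p from every other list, Csf1, Il34, Csf3, Fcgr2b, Satb1, and the 10 genes whose level over the libraries was most like that of the 10; not every gene so taken is reported here, and other names are comparison genes chosen after their values were seen. Alternatives were DESeq2 1.42.0, other scalings, other filters, a replicate block, leaving out each library, and leaving out globin, immunoglobulin, T cell receptor and mitochondrial genes.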

Additional observations from a re-analysis of the deposited data

How the results depend on the processing

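Of the 10 genes, 10 were called higher and 0 lower under each of 13 alternatives, except without Satb1 cKO replicate 3, where Fcgr3 was not called and 9 remained called. The counts without each library in turn were 9 to 10. No direction reversed for any result recomputed. Over the leave-outs, genes called among all tested ranged from 4671 (without control replicate 3) to 5835 (without control replicate 1), beside 5651 with all libraries; DESeq2 called 4780 and the fit without a filter 6070. Among neutrophil genes 11 were called higher with the filter on low counts, 17 without it, where more genes were tested, and 10 to 13 over the leave-outs; 14 to 24 monocyte and macrophage genes were called higher over the leave-outs.

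Same-numbered libraries of the groups deviated together hardly at all (correlations of deviations 0.026, -0.0098 and 0.024), so the numbers were not taken to pair the libraries. With the replicate block, 10 of the 10 genes were higher and 5563 genes were called in all. Depth limits the genes with few control reads: S100a8 rested on 17 reads over the 3 control libraries, Csf3r on 14 and Adgre1 on 16, and their fold changes carry wide intervals.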
